A study of Homo sapiens with 4 samples.

Results

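The genes described here encode the protein-folding and quality-control machinery of the endoplasmic reticulum (ER): chaperones and lectins, disulfide enzymes, factors of ER-associated degradation, and the 3 sensors of unfolded protein. They are 42 listed genes out of 78932 gene rows in the deposited count table, matched by symbol through their Ensembl IDs. All 42 were found and 41 had enough counts to be tested. The cells were RPMI 8226, a long-established line from a human myeloma, whose RNA was sequenced 72 h after antisense oligonucleotides built with locked nucleic acids (LNA), which lower the RNA they pair with, were brought into them. Cells of the 2 control libraries received a control LNA (ASO1), whose dose the labels do not give separately, and cells of the 2 LINC01432 libraries received 50 nM of an LNA (ASO3) against LINC01432, a long intergenic noncoding RNA. All 4 libraries are of this 1 cell line, and 1 oligonucleotide stands for each group, so an effect of that oligonucleotide other than on its target cannot be told apart from one of LINC01432. Nothing in the labels says that the libraries are of separate cultures, and p-values therefore reflect how far these 4 libraries scatter, which can be technical. In bulk RNA, fewer cells of a type and less RNA per cell cannot be told apart.

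Proteins that enter the secretory pathway fold inside the ER. HSPA5 (BiP) and HSP90B1 (GRP94) bind unfolded chains, calnexin and calreticulin hold sugar-bearing chains while PDIA3 forms their disulfide bonds, and chains that do not fold are passed by EDEM and OS9 to the SEL1L-SYVN1 ubiquitin ligase, drawn out through the DERL proteins by the ATPase VCP, and destroyed by the proteasome. ERN1 (IRE1), ATF6 and EIF2AK3 (PERK) sense unfolded chains and start the unfolded protein response, which raises many of the same genes. Myeloma cells descend from plasma cells and carry a heavy secretory load, and RPMI 8226 secretes an immunoglobulin light chain.

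ATF6 and XBP1 are known to act through short promoter elements of folding genes, so the promoters of selected members are shown first. The windows run from 250 bases before to 50 bases after each gene's start and come from the RefSeq table (GRCh38.p14), whose starts can differ from the GENCODE gene bounds given further on and which held 38 of the 42 members. Capitals mark the ER stress element (ERSE, the letters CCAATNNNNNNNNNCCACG), the ER stress element II (ERSE-II, ATTGGNCCACG) and the core of the unfolded protein response element (UPRE, TGACGTGG), searched on both strands. HSP90B1, HYOU1 and TXNDC11 were lower with LINC01432 LNA both before and after a correction for GC content, HSPA5 and HERPUD1 hold such elements and were not called, and PRDX4 was higher.
HSP90B1 (chr12:103930160-103930459, plus strand): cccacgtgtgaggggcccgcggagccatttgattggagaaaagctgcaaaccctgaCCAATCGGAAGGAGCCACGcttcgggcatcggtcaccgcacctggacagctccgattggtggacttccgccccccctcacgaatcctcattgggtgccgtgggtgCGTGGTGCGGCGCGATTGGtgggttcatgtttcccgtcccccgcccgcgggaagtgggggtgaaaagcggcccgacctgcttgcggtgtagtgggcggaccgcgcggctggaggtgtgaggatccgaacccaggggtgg
HYOU1 (chr11:119057156-119057455, minus strand): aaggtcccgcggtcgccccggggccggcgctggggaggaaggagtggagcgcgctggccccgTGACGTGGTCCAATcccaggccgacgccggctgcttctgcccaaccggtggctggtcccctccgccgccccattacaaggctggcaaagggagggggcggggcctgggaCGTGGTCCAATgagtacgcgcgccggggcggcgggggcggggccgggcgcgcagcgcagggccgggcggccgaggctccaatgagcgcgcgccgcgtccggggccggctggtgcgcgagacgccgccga
TXNDC11 (chr16:11742808-11743107, minus strand): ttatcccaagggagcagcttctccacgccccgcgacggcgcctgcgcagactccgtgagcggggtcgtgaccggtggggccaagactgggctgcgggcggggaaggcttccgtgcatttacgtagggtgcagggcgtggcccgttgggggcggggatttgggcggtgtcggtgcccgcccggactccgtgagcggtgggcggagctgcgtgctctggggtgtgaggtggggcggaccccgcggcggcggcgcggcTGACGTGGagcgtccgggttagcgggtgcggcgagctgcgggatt
HSPA5 (chr9:125241294-125241593, minus strand): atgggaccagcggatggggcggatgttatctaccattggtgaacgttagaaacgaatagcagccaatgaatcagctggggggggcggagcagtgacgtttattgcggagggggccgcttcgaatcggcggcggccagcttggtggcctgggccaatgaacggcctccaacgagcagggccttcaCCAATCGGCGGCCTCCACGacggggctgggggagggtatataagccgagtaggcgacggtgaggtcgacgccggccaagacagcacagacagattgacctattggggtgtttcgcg
HERPUD1 (chr16:56931892-56932191, plus strand): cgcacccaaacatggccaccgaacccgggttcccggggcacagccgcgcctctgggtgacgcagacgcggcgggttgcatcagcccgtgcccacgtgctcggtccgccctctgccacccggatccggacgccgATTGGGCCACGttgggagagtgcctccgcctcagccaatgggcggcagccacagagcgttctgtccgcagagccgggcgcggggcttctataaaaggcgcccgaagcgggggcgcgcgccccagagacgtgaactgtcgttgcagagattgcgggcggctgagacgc
PRDX4 (chrX:23667243-23667542, plus strand): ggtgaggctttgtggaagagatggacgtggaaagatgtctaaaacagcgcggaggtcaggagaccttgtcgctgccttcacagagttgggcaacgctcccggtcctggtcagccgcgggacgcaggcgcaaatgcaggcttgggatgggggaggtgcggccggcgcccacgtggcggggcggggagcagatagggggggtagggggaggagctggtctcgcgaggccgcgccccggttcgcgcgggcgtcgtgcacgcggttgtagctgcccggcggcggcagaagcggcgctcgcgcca

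The HSP90B1 window holds the ERSE letters 2 times and that of HSPA5 holds them 1 time. The HYOU1 window holds ERSE-II 2 times, 1 of them overlapping a UPRE core, and the HERPUD1 window holds it 1 time. TXNDC11 holds only the UPRE core, and PRDX4 holds none of the 3. DNAJC3, called lower before GC correction only, has a window that also holds none and is not shown. PDIA3 and DERL1, likewise called lower before GC correction only, have no window and are left out of the counts below. Across all members, 7 of the 38 genes with a window (18.4%) held ERSE, against 0.0769% of all 35116 RefSeq windows. ERSE-II was found in 3 of the 38 (7.89%) against 0.0541% of all windows, and the UPRE core in 5 of the 38 (13.2%) against 0.729%. The CCAAT box alone stood in 29 of 38 (76.3%) against 34.6%. The core of the amino acid response element (TGATGNAAT), bound by ATF4, stood in 0 of 38. Its share of all windows, 0.991%, is too small for 0 of 38 to be told apart from it. Some members have more than 1 window, which raises shares counted by gene. Of the 49 member windows, 9 held ERSE, 3 ERSE-II, 5 the UPRE core and 34 the CCAAT box. The 10 tested members with ERSE or ERSE-II had a median log2 fold change of -0.11, between -0.38 and 0.31, with 2 called lower. The 27 tested members whose windows held neither had a median of -0.17, between -0.48 and 0.58, with 2 called lower and 1 called higher. Of all 18680 tested genes 4.37% were called lower and 7.5% higher. A match of letters is a description and shows no binding.

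The libraries held 20873393 to 29161298 gene counts, and a count of 3 was worth 0.103 to 0.140 CPM (a gene's counts scaled to the size of its library). LINC01432 itself measured 20.5 and 17.9 CPM in the control libraries and 8.997 and 9.90 CPM in the LINC01432 LNA libraries, a log2 fold change of -1.02 ± 0.11 (SE; edgeR adjusted p = 0.000228). All 8 plasma cell markers were above 1 CPM in every library, with a summed level of 2744 to 2859 CPM in the controls and 2441 to 2699 CPM with LINC01432 LNA. They were SDC1, TNFRSF17, IRF4, PRDM1, XBP1, MZB1, SLAMF7 and POU2AF1. MZB1 is itself a member and XBP1 is described below, so this sum is not independent of the ER genes. The B cell markers MS4A1 and PAX5 were between 0.996 and 4.12 CPM. The 4 T and NK cell markers summed to 0.530 to 0.832 CPM, the 4 myeloid markers to 3.26 to 4.91 CPM with LYZ at 0, and the 4 fibroblast and endothelial markers to 4.12 to 7.13 CPM. Of the epithelial markers EPCAM and KRT18 were measured at 45.4 to 60.9 CPM, KRT8 at 2.30 to 2.71 CPM and CDH1 at 0.309 to 0.611 CPM, and the 4 summed to 114 to 118 CPM in the controls and 99.2 to 99.8 CPM with LINC01432 LNA. The part of these markers in the results was not tested. Counts differed by 3.79 times the counting variance between the control libraries and by 12.2 times between the LINC01432 LNA libraries.

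The comparison asked whether the ER genes differ between LINC01432 LNA and control LNA. Of the members, 34 did not pass the test, and the changes of those that did were small: HSP90B1, HYOU1, DNAJC3, PDIA3, TXNDC11 and DERL1 fell 1.22-fold to 1.40-fold, and PRDX4 rose 1.495-fold. Of the 41 members tested, 6 were called lower (14.6%; by edgeR's quasi-likelihood F test with p adjusted by Benjamini and Hochberg, under 0.05), where 4.37% of all 18680 tested genes were called lower. The 1 member called higher (2.44%) stood beside 7.5% of all genes. The median log2 fold change was -0.15 over the members and 0.013 over all tested genes, and 32 of the 41 members (78.0%) were below 0, against 48.1% of all genes. In 22 members both LINC01432 LNA libraries lay below both controls and in 2 they lay above, where this held for 25.9% and 28.2% of all genes. The members were 27 tested folding factors (5 lower, 1 higher, median -0.17), 11 degradation factors (1 lower, 0 higher, median -0.076) and 3 sensors (0 called, median -0.19). Whether these 3 groups differ from each other was not tested.

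The call of each fallen gene rested on having both control libraries. Without control library 1 or without control library 2, a fit that takes its spread from the more variable LINC01432 LNA pair alone, 0 members were called lower, where 0.996% and 1.29% of all genes were. With LINC01432 LNA library 1 or 2 left out, 14 and 24 members were called lower, where 13.1% and 12.1% of all genes were. Fits without a LINC01432 LNA library take their spread from the less variable control pair alone, a limit on every call they give below. The 6 values stayed between -0.51 and -0.24 without any 1 library, as the plot of the called members with a library left out shows. The fold change also went with GC content: over 17060 tested genes the correlation of GC content with the log2 fold change was r = 0.36 (rho = 0.38), and over the 41 members it was r = 0.36 (rho = 0.30), with all points sharing the same 4 libraries. Over the same 41 members the correlation with log2 exon length was r = -0.43 (rho = -0.34). After GC correction r was -0.26 with GC content and -0.043 with log2 exon length. With a correction for GC content 3 members were called lower, HSP90B1, HYOU1 and TXNDC11, where 4.38% of all genes were called lower. PRDX4 was again the 1 member called higher, beside 5.8% of all genes. The median of the members was then -0.094 and that of all genes 0.030. Without centring that correction on each library's mean, a choice added after the data were seen, 6 members were called lower, 5 of them among the first 6, where 7.3% of all genes were called lower. Of all called genes 63.2% were higher without correction, 56.9% with it and 36.1% with the uncentred form.

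**Figure D1:**
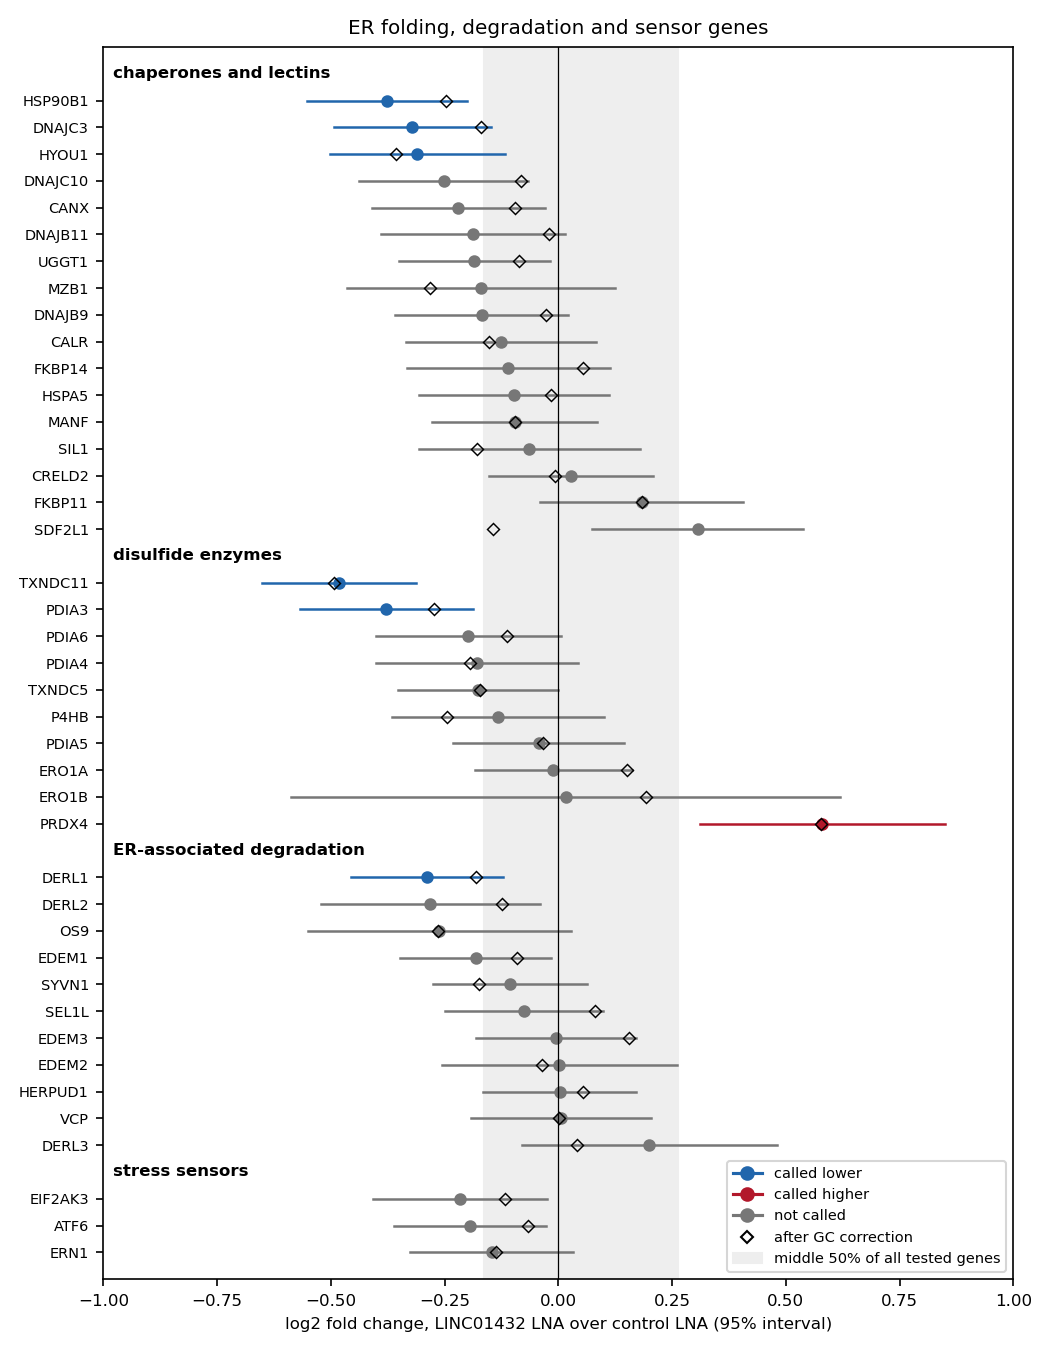
Log2 fold change of LINC01432 LNA over control LNA for the 41 tested members, grouped by role. Filled points with lines are the estimate and its 95% interval (blue called lower, red called higher, grey not called), open diamonds the estimate after GC correction, and the shaded band the middle 50% of all tested genes; 32 of the 41 filled points lie left of 0.

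Chaperones and lectins were the largest role group, with 17 of 18 tested. Of these 3 fell (17.6%, beside 4.37% of all genes), 0 rose (beside 7.5%) and 14 did not pass (edgeR). DESeq2 and limma-voom each called the same numbers, 3 lower and 0 higher. Of all genes they called 3.50% and 4.31% lower, and 5.23% and 7.33% higher. HSP90B1 (ENSG00000166598, chromosome 12 from 103930107 to 103953645 in GRCh38), the ER member of the HSP90 chaperone family, measured 659 and 677 CPM in the control libraries and 511 and 518 CPM in the LINC01432 LNA libraries. The pairs did not overlap, and each was tight. Its log2 fold change was -0.38 ± 0.080 (SE; edgeR adjusted p = 0.0108), which is 1.299-fold lower, and after GC correction it was -0.25 (adjusted p = 0.0479). Without control library 1 and 2 the values were -0.41 and -0.37 and were not called (adjusted p = 0.274 and 0.352). Counts of its processed copies HSP90B2P and HSP90B3P came to 1.98% and 0.591% of its own, and reads they share cannot be assigned with certainty.

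HYOU1 (ENSG00000149428, chromosome 11 from 119044189 to 119057202), a large HSP70-like chaperone that exchanges the nucleotide of HSPA5, measured 661 and 673 CPM with control LNA and 506 and 570 CPM with LINC01432 LNA. Both LINC01432 LNA libraries lay below the controls, but they differed from each other more than the controls did. The log2 fold change was -0.31 ± 0.088 (SE; edgeR adjusted p = 0.04155) and, after GC correction, -0.36 (adjusted p = 0.00992). It was -0.34 and -0.31 without control library 1 and 2, neither called. DNAJC3 (ENSG00000102580), an HSPA5 cochaperone also known as an inhibitor of eIF2α kinases, measured 69.8 and 69.98 CPM with control LNA and 54.4 and 57.4 CPM with LINC01432 LNA. It was 1.25-fold lower (log2 fold change -0.32 ± 0.079, SE; edgeR adjusted p = 0.0224). DNAJC3 has a GC content of 39.9%, and its value after GC correction was -0.17 and not called (adjusted p = 0.193). Without control library 1 and 2 it was -0.34 and -0.33, neither called.

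CALR (calreticulin) had the highest level per length of all members, 1067 TPM (counts scaled first to exon length, then to the library). It measured 1363 and 1406 CPM with control LNA and 1175 and 1363 CPM with LINC01432 LNA, so that LINC01432 LNA library 1 was low and library 2 stood level with control library 1. The log2 fold change of -0.13 (95% interval -0.33 to 0.083) did not pass (edgeR adjusted p = 0.463), and when LINC01432 LNA library 2 was left out it was -0.25 and called. HSPA5, the main HSP70 chaperone of the ER and the gene most used as a mark of ER stress, followed at 606 TPM. Its libraries overlapped, with 1081 and 1161 CPM in the controls and 975 and 1120 CPM with LINC01432 LNA. The log2 fold change was -0.097 (95% interval -0.31 to 0.11; edgeR adjusted p = 0.586), and leaving out LINC01432 LNA library 2 gave -0.22, which was called. HSPA5P1 held 1.67% as many counts.

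The other chaperones and lectins had log2 fold changes between -0.25 and 0.31, none called (edgeR adjusted p between 0.0792 and 0.880). At the lower end were DNAJC10, a reductase that opens disulfides before degradation (-0.25), calnexin (CANX, -0.22), the HSPA5 cochaperones DNAJB11 and DNAJB9 (-0.19 and -0.17), and UGGT1, which tags misfolded glycoproteins for another round with calnexin (-0.18). In these 5 genes, picked for their low values, both LINC01432 LNA libraries lay below both controls. Over all 17 tested chaperones and lectins this held for 11, beside 25.9% of all tested genes. In 1 of the 17 they lay above, beside 28.2%. The margins were narrow in DNAJB11, at 48.2 and 53.7 CPM against 47.3 and 42.2 CPM. After GC correction the values of the 5 genes lay between -0.094 and -0.020. Without LINC01432 LNA library 1 the values were -0.36 for DNAJC10, -0.29 for DNAJB11, -0.19 for CANX and -0.19 for UGGT1. Without library 2 they were -0.28 for CANX, -0.22 for UGGT1 and -0.18 for DNAJC10. Such fits take their spread from the control pair alone. Of the exonic bases of DNAJB11 23.2% overlap other genes. MZB1, a plasma cell cochaperone of HSP90B1, varied widely: it measured 434 and 490 CPM with control LNA but 342 and 480 CPM with LINC01432 LNA, and its log2 fold change of -0.17 became -0.45 and called without LINC01432 LNA library 2. The isomerase FKBP14 and the secreted stress factor MANF were at -0.11 and -0.0955, and the HSPA5 nucleotide exchange factor SIL1 at -0.064. With LINC01432 LNA library 2 left out MANF and SIL1 were at -0.20 and -0.28.

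At the upper end of this group stood SDF2L1, a member of HSPA5 and DNAJB11 complexes. It measured 27.4 and 29.75 CPM with control LNA and 31.6 and 38.8 CPM with LINC01432 LNA, so its libraries did not overlap, but its log2 fold change of 0.31 was not called (edgeR adjusted p = 0.0879). At 65.5% SDF2L1 had the highest GC content of the tested members, and its value after GC correction was -0.14. With LINC01432 LNA library 1 left out it was 0.43 and called. The isomerase FKBP11 was at 0.18, and 0.31 and called with the same library left out, and CRELD2, a disulfide-linked stress protein, at 0.028. FKBP2 was listed with 6 and 4 counts with control LNA, 9 and 4 counts with LINC01432 LNA, and was not tested.

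Of the 10 disulfide enzymes 2 fell (20%, beside 4.37% of all genes), 1 rose (10%, beside 7.5%) and 7 did not pass (edgeR). TXNDC11 (ENSG00000153066, chromosome 16 from 11679080 to 11742878), a membrane-bound thioredoxin-domain protein reported to work with EDEM proteins, had the lowest log2 fold change of the 41 tested members. It measured 301 and 307 CPM with control LNA and 217 and 218 CPM with LINC01432 LNA. Both pairs were tight and well apart. The log2 fold change was -0.48 ± 0.077 (SE; edgeR adjusted p = 0.00222), which is 1.40-fold lower, and -0.49 after GC correction (adjusted p = 0.00110). Without control library 1 and 2 it was -0.51 and -0.48 (adjusted p = 0.0768 and 0.103). TXNDC11 was the 1 member called lower at an adjusted p under 0.01. Of its exonic bases 11.2% overlap genes on the opposite strand.

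PDIA3 (ENSG00000167004, chromosome 15 from 43746392 to 43773279), the disulfide isomerase that works with calnexin and calreticulin, measured 211 and 221 CPM with control LNA and 155 and 177 CPM with LINC01432 LNA. The groups did not overlap. It was 1.3-fold lower (log2 fold change -0.38 ± 0.087, SE; edgeR adjusted p = 0.0158), and after GC correction it was -0.27 and no longer called (adjusted p = 0.0632). Without control library 1 and 2 it was -0.43 and -0.36, neither called. Of its exonic bases 18.9% overlap opposite-strand genes, among them ELL3, and its processed copy PDIA3P1 held 1.54% as many counts.

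PRDX4 (ENSG00000123131, chromosome X from 23664262 to 23686399), a peroxiredoxin that uses hydrogen peroxide to form disulfides in the ER, was the 1 member called higher. It measured 96.5 and 113 CPM in the control libraries and 135 and 178 CPM in the LINC01432 LNA libraries. The groups did not overlap, although both varied. The log2 fold change was 0.58 ± 0.12 (SE; edgeR adjusted p = 0.0107) and stayed at 0.58 after GC correction (adjusted p = 0.0115). It was 0.35 without LINC01432 LNA library 2 and 0.75 without library 1, both called, and 0.45 and not called without control library 1 (adjusted p = 0.150). No exonic base of PRDX4 overlaps another gene in GENCODE 29.

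**Figure D2:**
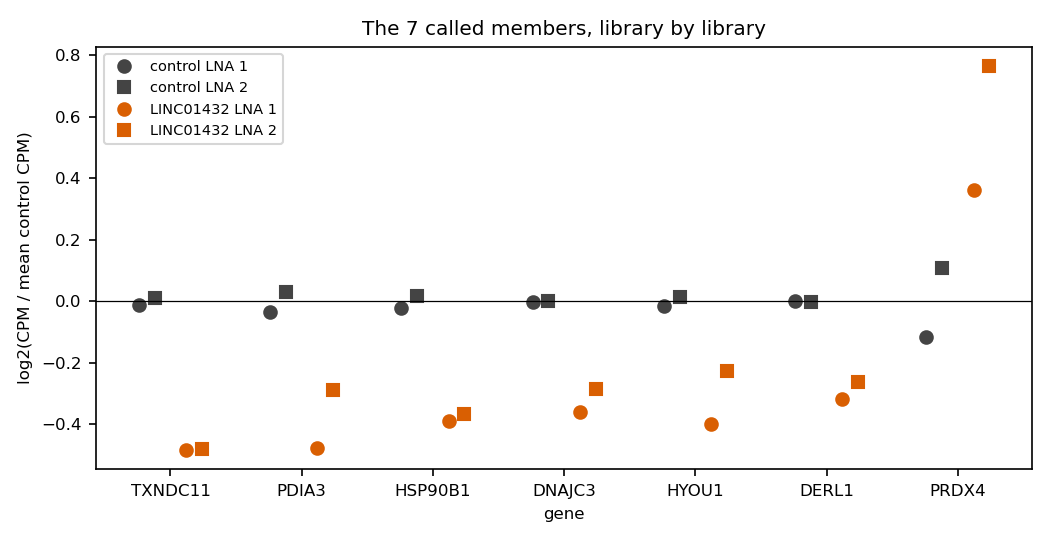
CPM of the 7 called members in each of the 4 libraries, as log2 of the ratio to the mean of the 2 control libraries; grey marks are control LNA, orange marks LINC01432 LNA, circles library 1 and squares library 2. In all 7 genes the orange marks lie on 1 side of both grey marks, and for PRDX4, at 135 and 178 CPM, they lie far from each other.

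P4HB, the classical protein disulfide isomerase and the disulfide enzyme with the highest level per length (364 TPM), measured 894 and 957.5 CPM with control LNA and 754 and 935 CPM with LINC01432 LNA. The groups overlapped and the log2 fold change of -0.13 (95% interval -0.37 to 0.10) was not called (edgeR adjusted p = 0.492). Its value with LINC01432 LNA library 2 left out was -0.31, which was called. PDIA6, PDIA4, TXNDC5 and PDIA5 were at -0.20, -0.18, -0.18 and -0.043. The first 3 were called without LINC01432 LNA library 2, at -0.34, -0.34 and -0.23. TXNDC5 shares 60.6% of its exonic bases with the readthrough gene BLOC1S5-TXNDC5, and PDIA6 25.2% with ATP6V1C2 on the other strand, so their counts cannot be assigned with certainty. ERO1A, the oxidase that recharges the isomerases, was at -0.011 (95% interval -0.18 to 0.16), and its relative ERO1B, at 1.39 to 2.06 CPM in all libraries, was too low for a narrow estimate (0.016, 95% interval -0.59 to 0.62).

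Of the 11 degradation factors, all tested, 1 fell (9.09%, beside 4.37% of all genes), 0 rose (beside 7.5%) and 10 did not pass (edgeR). DESeq2 and limma-voom also called 1 lower and 0 higher. They called 3.50% and 4.31% of all genes lower, and 5.23% and 7.33% higher. DERL1 (ENSG00000136986), which helps move chains out of the ER membrane, measured 131 and 130 CPM with control LNA and 105 and 109 CPM with LINC01432 LNA. The pairs were tight and did not overlap. It was 1.22-fold lower (log2 fold change -0.29 ± 0.076, SE; edgeR adjusted p = 0.0314), and after GC correction it was -0.18 and not called (adjusted p = 0.120). Without control library 1 and 2 the value of -0.30 in each was not called.

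Its relative DERL2 measured 14.3 and 16.3 CPM with control LNA and 12.2 and 12.9 CPM with LINC01432 LNA, without overlap. The log2 fold change of DERL2, -0.28, was close to the -0.29 of DERL1. It was not called (edgeR adjusted p = 0.128, 95% interval -0.52 to -0.041). Without LINC01432 LNA library 2 the value of DERL2 was -0.35. DERL3 was at 0.20 and overlapped between groups (0.33 and called with LINC01432 LNA library 1 left out), and 77.0% of its exonic bases lie over SMARCB1 exons on the other strand, so its counts are uncertain. VCP, the most abundant degradation factor per length at 199 TPM, measured 494 and 497 CPM with control LNA and 461 and 533 CPM with LINC01432 LNA. The LINC01432 LNA libraries lay on either side of the controls, with a log2 fold change of 0.0056 (95% interval -0.19 to 0.20; edgeR adjusted p = 0.979), and with library 2 left out its value turned to -0.12 and was called.

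The ubiquitin ligase SYVN1 and its partner SEL1L were at -0.11 and -0.076, with 95% intervals of -0.28 to 0.062 and -0.25 to 0.098, and SYVN1 was called, at -0.15, with LINC01432 LNA library 2 left out. The mannosidase-like EDEM1, EDEM2 and EDEM3 were at -0.18, 0.0017 and -0.0049, and EDEM1 measured 132 and 129 CPM against 115 and 115 CPM without overlap. EDEM1 was called at -0.20 with LINC01432 LNA library 1 left out, and at -0.20 also with library 2 left out. HERPUD1, a ligase-associated protein that is strongly induced in ER stress, measured 178.5 and 183 CPM with control LNA and 179 and 183 CPM with LINC01432 LNA. The 2 pairs were nearly the same, and its log2 fold change was 0.0032 with a 95% interval of -0.16 to 0.17. OS9, the lectin that recognises trimmed sugars on chains to be degraded, measured 153 and 173 CPM with control LNA and 113.5 and 159 CPM with LINC01432 LNA. The 2 groups overlapped (log2 fold change -0.26, edgeR adjusted p = 0.244), and a fit that left out LINC01432 LNA library 2 gave -0.54, which was called.

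None of the 3 sensors was called by edgeR, DESeq2 or limma-voom. All 3 sensors had both LINC01432 LNA libraries below both controls, as had 25.9% of all tested genes. ATF6, a transcription factor released from the membrane under stress and the most abundant sensor per length (40.01 TPM), measured 152 and 156 CPM with control LNA and 133 and 137 CPM with LINC01432 LNA. The log2 fold change was -0.19 (95% interval -0.36 to -0.026; edgeR adjusted p = 0.134), and -0.066 after GC correction. EIF2AK3, the kinase that slows translation, measured 24.8 and 24.7 CPM with control LNA and 21.8 and 20.9 CPM with LINC01432 LNA, a log2 fold change of -0.22 (95% interval -0.41 to -0.025; edgeR adjusted p = 0.142). ERN1, the kinase and nuclease that splices XBP1 RNA, measured 203 and 201 CPM with control LNA and 191 and 174 CPM with LINC01432 LNA, a log2 fold change of -0.15 (95% interval -0.33 to 0.031; edgeR adjusted p = 0.293). After GC correction EIF2AK3 and ERN1 were at -0.12 and -0.14, and 15.1% of the exonic bases of EIF2AK3 overlap opposite-strand genes. With LINC01432 LNA library 1 left out all 3 were called, at -0.19, -0.26 and -0.23, and without library 2 ATF6 was called at -0.23. Gene counts do not show sensor activity or XBP1 splicing.

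**Figure D3:**
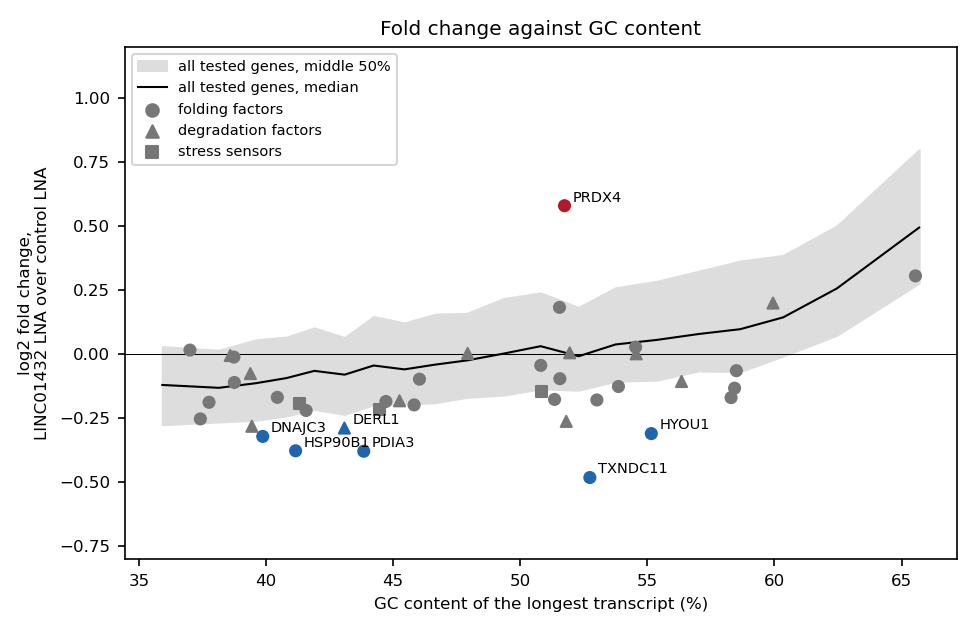
Log2 fold change of the 41 tested members against the GC content of their longest transcript, with the median (line) and middle 50% (band) of all tested genes in bins of GC content. Circles are folding factors, triangles degradation factors and squares sensors, with genes called lower in blue and higher in red; all 6 genes called lower lie below the band, HYOU1 and TXNDC11 at 55.2% and 52.7% GC and DNAJC3, DERL1, HSP90B1 and PDIA3 at 39.9% to 43.8% GC.

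Together the 42 genes held 1.11% and 1.15% of all counts with control LNA and 0.975% and 1.03% with LINC01432 LNA. The ratio of the group means was 0.887, with no overlap, and it is given as a description. An exact two-sided permutation test of the share gave p = 0.333. This is the smallest p it can give with 2 libraries in each group, so it cannot decide. The ratio was 0.874 for chaperones and lectins, 0.885 for disulfide enzymes, 0.940 for degradation factors and 0.885 for sensors. Immunoglobulin genes, which encode the main secreted products of plasma cells, held 0.298% and 0.374% of counts with control LNA and 0.306% and 0.591% with LINC01432 LNA, so these groups overlapped. Within the LINC01432 LNA pair the members were mostly lower in library 1: 32 of 41 were below library 2, among them 22 of 27 folding factors, 9 of 11 degradation factors and 1 of 3 sensors, where 49.9% of all tested genes were. In the control pair 30 of 41 were lower in library 1, where 50.1% of all tested genes were.

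**Figure D4:**
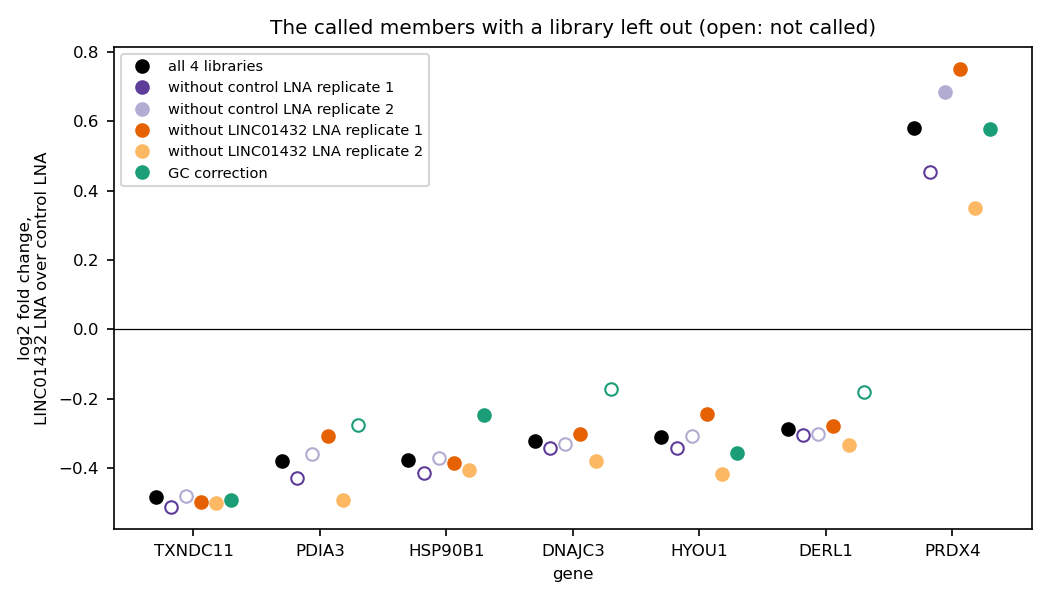
Log2 fold change of the 7 called members with all 4 libraries, without each library in turn and with GC correction; filled points were called by edgeR at an adjusted p under 0.05 and open points were not. The 6 lowered genes stay below 0 in all 6 fits, and all are open without control library 1 or 2; PRDX4 ranges from 0.35 to 0.75.

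Other genes of the same pathways were read from longer lists. Of 43 further ER folding genes, 39 were tested: 2 fell and 2 rose (5.13% each, beside 4.37% and 7.5% of all genes), with a median log2 fold change of -0.083. SEC63, the translocon partner that recruits HSPA5, measured 72.6 and 74.7 CPM with control LNA and 53.4 and 56.9 CPM with LINC01432 LNA (log2 fold change -0.42, edgeR adjusted p = 0.00612). HSPA13, an HSP70 relative of the ER, was at -0.30 (adjusted p = 0.0407), and neither was called after GC correction (-0.26 and -0.10) or without control library 1 or 2. TXNDC12, a small thioredoxin-like protein, rose from 11.1 and 11.7 CPM to 24.1 and 29.3 CPM (log2 fold change 1.23, adjusted p = 7.09e-05), called also after GC correction, but 49.7% of its exonic bases overlap other genes. PDIA2 rose from 3.85 and 3.51 CPM to 4.75 and 9.23 CPM (0.94, adjusted p = 0.0360), rests on LINC01432 LNA library 2 (0.35 and not called without it) and was not called after GC correction (0.60).

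Of 50 further degradation genes, 49 were tested: 4 fell (8.16%, beside 4.37% of all genes) and 6 rose (12.2%, beside 7.5%), with a median log2 fold change of -0.067. UBE2J1, the ubiquitin-conjugating enzyme of the ER membrane, measured 340 and 341 CPM with control LNA and 255 and 239 CPM with LINC01432 LNA. It fell 1.38-fold (log2 fold change -0.46, edgeR adjusted p = 0.00320) and was called after GC correction (-0.32). The membrane ubiquitin ligase MARCHF6 fell 1.29-fold (-0.37, adjusted p = 0.00897) and was not called after GC correction (-0.22). HM13, the signal peptide peptidase, rose 1.38-fold (0.47, adjusted p = 0.00620) and was called after GC correction (0.50). UBE2J1, MARCHF6 and HM13 were not called without control library 1 or 2. TMUB1 rose 1.68-fold (0.75, adjusted p = 0.000484), but after GC correction it was 0.22 and not called.

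Of 30 listed genes of the unfolded protein response downstream of the sensors, 29 were tested: 3 fell (10.3%, beside 4.37% of all genes) and 7 rose (24.1%, beside 7.5%), with a median log2 fold change of 0.10. DDIT3 (CHOP), PPP1R15A, SESN2 and TRIB3, targets of ATF4 in the integrated stress response, rose 2.28-fold, 1.88-fold, 1.67-fold and 1.575-fold (edgeR adjusted p = 0.00232, 0.00125, 0.000879 and 0.00131). All 4 were called after GC correction and without each library in turn, but 39.6% of the exonic bases of DDIT3 overlap other genes. ATF4, named after its values were seen, measured 238 and 247 CPM with control LNA and 300 and 351 CPM with LINC01432 LNA (0.42, adjusted p = 0.0117). XBP1, the factor that maintains ER genes in plasma cells, also named after its values were seen, measured 442 and 437 CPM with control LNA and 331 and 356 CPM with LINC01432 LNA. It fell 1.28-fold (-0.35, adjusted p = 0.0158) and was not called after GC correction (-0.23). Neither ATF4 nor XBP1 was called without control library 1 or 2.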

How the data were processed

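RNA of 4 libraries of RPMI 8226 cells was measured. Per the submitters' processing notes, bcl2fastq, STAR 2.7.11b, featureCounts 2.0.8 of Subread and Salmon 1.10.0 were used with GRCh38, with no role or order given. The strand setting and annotation release: not given in the sources used here. The authors deposited whole-number counts per gene, not normalized. The design text names poly(A) selection and the labels' protocols an enzymatic removal of ribosomal RNA. The table also held 97 rows of spike-in and transgene sequences, at most 4.2e-05% of a library, which were left out.

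Symbols matched 61481 gene IDs. Positions, exon length, overlap and the GC content of the longest transcript came from GENCODE 29 (57356 IDs, 99.4% of counts). In R 4.3.3, edgeR 4.0.16 (quasi-likelihood F test, TMM, filterByExpr with minimum count 10 and total 15, group as the only term, biological coefficient of variation 7.13%) was fitted on all genes, and adjusted p-values under 0.05 were called. Standard errors and 95% intervals derive from the F statistic. CPM use TMM-scaled libraries. TPM use exon length. For GC correction, log2 CPM of each library was smoothed over GC content by lowess (span 0.3), and the centred curve entered the fit as an offset. Alternatives included DESeq2 1.42.0 and limma-voom (limma 3.58.1). The step was tested on counts simulated with the same spread in every library, so that test does not cover the unequal spread of the control and LINC01432 LNA pairs. Members, lists and alternatives were chosen with earlier results of these data known. Values were given in full for every called member, the sensors, and in each role the member with the highest level per length and the 2 with the largest absolute fold change, and for up to 4 called genes of each longer list; other values were chosen after they were seen. The comparison has 2 libraries in each group.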

Additional observations from a re-analysis of the deposited data

How the results depend on the processing

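With all 4 libraries, 6 members were called lower and 1 higher. Median-of-ratios or library-total scaling, other filters, DESeq2, limma-voom and a fit without mitochondrial, immunoglobulin and structured RNA genes kept all 6 and the 1. Library totals and no filter gave 7 and 9 lower, where 3.47% and 2.08% of all genes were lower. With GC correction 3 were lower, and at an adjusted p under 0.01 1 was lower and 0 higher; at an adjusted p under 0.1 there were 2 higher. Leaving out a library gave 0 to 24 lower and 0 to 4 higher. With the replicate number as a block 9 were lower and 2 higher, and with the block and GC correction 10 lower and 2 higher, where 8.66% and 8.90% of all genes were lower and 12.0% and 11.3% higher. The labels do not say that a number marks a shared batch, and over 18680 genes the libraries numbered 1 deviated from their group means with a correlation of 0.13, which with 2 pairs does not settle a pairing, so the numbers were not taken to pair the libraries. The median log2 fold change of folding factors was -0.17, -0.094 with GC correction, -0.097 with the block and GC correction, and -0.22 to -0.085 without a library. For sensors it was -0.19, -0.12 with GC correction, -0.12 with both, and -0.23 to -0.19 without a library. For degradation factors it was -0.076, and -0.15 to -0.041 without a library. VCP, not called at 0.0056, ranged from -0.12, called, without LINC01432 LNA library 2 to 0.089 without library 1. Of single members, 3 calls were lost with GC correction. Over all genes, 2218 were called, 3862 with the block, 3767 with the block and GC correction, 5228 and 4328 without LINC01432 LNA library 1 and 2, and 766 and 1085 without control library 1 and 2. Fits without a control library take their spread from the LINC01432 LNA pair alone and the others from the control pair; the cause of the other shifts was not tested. FKBP2, at 4 to 9 counts, was not tested, and the interval of ERO1B, at low counts, was wide.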
